A study of Mus musculus with 15 samples.

Results

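Open chromatin of IRF8KO microglia was compared with that of WT microglia at postnatal day 14 (P14) by ATAC-seq, in which a transposase inserts sequencing adapters into accessible DNA. The comparison rests on 4 of the 15 libraries of the series: WT at P14 (2 libraries) and IRF8KO at P14 (2 libraries), both from untreated C57BL/6 mice. The members were chosen by their labels, and all peaks on chromosomes 1 to 19 and X were used. For reference, the same sites were looked up in untreated C57BL/6 mice at P9 (WT, 2 libraries, and IRF8KO, 3 libraries) and in C57BL/6 WT mice at 10 months that had received the dye MetoxyX04 (2 libraries). A single closing observation also uses MetoxyX04 negative microglia of C57BL/6 mice of the 5xFAD genotype at 10 months, given the same dye (2 libraries). All cells were microglia isolated from brain without enzymes and sorted by flow cytometry. The genotype is labelled IRF8KO with no promoter or Cre, and the sources used here do not give the deleted part of the gene. Nothing in the labels says whether libraries of a group came from separate mice, so the spread within a group may be technical only.

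Microglia are the resident macrophages of the brain and arise from yolk sac progenitors. IRF8 is a transcription factor of the interferon regulatory factor family that binds DNA mostly with a partner. With the ETS factor PU.1 it binds composite ETS-IRF elements, and with other IRF proteins it binds interferon-stimulated response elements (ISRE). It is known to be needed for the normal number, shape and gene programme of microglia. An ATAC-seq peak marks DNA that is open to such factors, at promoters and at distant enhancers.

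A site was a peak summit, with summits within 400 bp merged. It was present in a library whose nearest summit lay within 200 bp and missing from a library with no summit within 400 bp. A site was called lost when it was present in both WT and missing from both IRF8KO libraries at P14, and gained in the reverse case. The word strong was kept for sites among the 30000 top peaks, by the authors' −log10 p, in both libraries of the group where they were present. With 2 libraries a group a two-sided exact permutation test cannot give a p under 0.333, so the calls at P14 are descriptions.

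The 4 lists held 139851 to 169125 peaks and gave 235049 sites. Of these, 116138 were present in both libraries of at least 1 group and 65259 in all 4 libraries. Of the 116138 sites, 17343 were lost (14.9%) and 11336 were gained (9.76%). Of the 30887 sites that were strong in both libraries of at least 1 group, 620 were lost (2.01%) and 466 were gained (1.51%), while 18513 were strong in all 4 libraries. Within a genotype, 0.0% to 0.0604% of the 30000 top peaks of a library were missing from the other library, and between genotypes 2.82% to 3.91% were. The lists differed in strength. At rank 30000 the peak's −log10 p was 61.77 and 68.18 in WT and 26.55 and 22.83 in IRF8KO at P14, and its part in the calls at P14 was not tested. At P9 the order was the reverse, with 39.07 and 54.3 in WT and 78.35, 73.4 and 80.63 in IRF8KO.

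Few of the lost and gained sites lay at promoters. A promoter window, 250 bases before to 50 bases after a transcription start, held 9 strong lost sites (1.49%) and 10 strong gained sites (2.27%), against 31.5% of the sites strong in all 4 libraries. Of these windows, 6 of protein-coding genes are printed as examples of both directions. They come from RefSeq on GRCm38.p6, the assembly behind mm10, and run 5′ to 3′ along the gene's strand from 250 bases before to 30 bases after the start. Capitals mark matches on either strand to GAAA, any 2 bases and GAAA (ISRE), to GGAA, any 2 bases and GAAA (ETS-IRF composite), to GGGA, any base and TTTCC (NF-kB), or to GAGGAAGT (PU.1), TGANTCA (AP-1) or TGTGGTT (RUNX). The windows of the lost sites are Tlr11 at chr14:50357664-50357943 on the plus strand, Phf11d at chr14:59365461-59365740 on the minus strand, Gimap1 at chr6:48738797-48739076 on the plus strand and Ly86 at chr13:37345095-37345374 on the plus strand. The windows of the gained sites are Sirpb1b at chr3:15575036-15575315 on the minus strand and Clec12a at chr6:129349994-129350273 on the plus strand.
Tlr11: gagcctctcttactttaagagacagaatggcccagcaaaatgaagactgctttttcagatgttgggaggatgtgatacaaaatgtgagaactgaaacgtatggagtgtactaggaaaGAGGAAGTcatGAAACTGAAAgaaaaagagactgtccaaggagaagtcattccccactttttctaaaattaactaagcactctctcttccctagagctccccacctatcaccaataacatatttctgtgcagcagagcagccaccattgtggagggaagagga
Phf11d: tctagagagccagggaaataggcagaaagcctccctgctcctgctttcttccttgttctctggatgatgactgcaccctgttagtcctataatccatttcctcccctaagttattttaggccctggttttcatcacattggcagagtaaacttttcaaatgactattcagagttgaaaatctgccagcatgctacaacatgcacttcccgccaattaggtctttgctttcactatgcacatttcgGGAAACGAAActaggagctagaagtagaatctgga
Gimap1: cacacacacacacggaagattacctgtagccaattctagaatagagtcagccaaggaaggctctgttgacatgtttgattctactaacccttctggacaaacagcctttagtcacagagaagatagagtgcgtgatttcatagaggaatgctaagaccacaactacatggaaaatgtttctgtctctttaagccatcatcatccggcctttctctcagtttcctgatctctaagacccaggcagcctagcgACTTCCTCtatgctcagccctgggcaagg
Ly86: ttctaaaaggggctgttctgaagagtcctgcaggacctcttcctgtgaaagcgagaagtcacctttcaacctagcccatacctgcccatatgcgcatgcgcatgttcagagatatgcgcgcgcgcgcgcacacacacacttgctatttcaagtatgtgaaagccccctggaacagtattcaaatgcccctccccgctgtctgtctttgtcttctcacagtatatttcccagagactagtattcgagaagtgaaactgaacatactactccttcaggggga
Sirpb1b: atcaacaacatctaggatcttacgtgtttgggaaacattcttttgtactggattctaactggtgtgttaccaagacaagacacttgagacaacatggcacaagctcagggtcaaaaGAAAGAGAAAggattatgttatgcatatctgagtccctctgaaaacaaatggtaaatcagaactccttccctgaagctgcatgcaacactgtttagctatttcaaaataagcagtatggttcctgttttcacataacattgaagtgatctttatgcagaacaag
Clec12a: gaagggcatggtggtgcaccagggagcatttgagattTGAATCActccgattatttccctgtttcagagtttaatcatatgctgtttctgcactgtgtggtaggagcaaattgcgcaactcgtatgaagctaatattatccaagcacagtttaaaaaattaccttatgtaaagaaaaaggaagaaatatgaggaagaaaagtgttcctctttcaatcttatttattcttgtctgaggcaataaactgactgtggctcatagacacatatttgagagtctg

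Tlr11 encodes a Toll-like receptor for a protozoan protein, and its window holds a PU.1 match starting 133 bases before the start and an ISRE match starting 122 bases before it. The fold enrichment the authors gave for the Tlr11 site, which is a peak's own value within its list, was 20.1 and 21.9 in the WT libraries at P14, and no summit lay within 400 bp in either IRF8KO library. The window of Phf11d, a PHD finger gene of the interferon-inducible Phf11 family, holds an ETS-IRF match that starts 5 bases before the start. Its site had 31.7-fold and 30-fold enrichment in WT and was missing from IRF8KO. Gimap1 encodes a GTPase of the immunity-associated GIMAP family, and a PU.1 match lies on the opposite strand just after its start. The Gimap1 site had 20-fold and 23.7-fold enrichment in WT. Ly86 encodes MD-1, the partner of the receptor RP105, and its window holds no match to these 6 motifs. The Ly86 site had 8.61-fold and 9.23-fold enrichment in WT.

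The gained window of Sirpb1b, a signal-regulatory protein gene of myeloid cells, holds an ISRE match starting 134 bases before the start. Its site had 13.5-fold and 15.1-fold enrichment in the IRF8KO libraries at P14 and was missing from both WT libraries. Clec12a encodes an inhibitory C-type lectin receptor of myeloid cells, and its AP-1 match starts 213 bases before the start. The Clec12a site had 13-fold and 9.83-fold enrichment in IRF8KO. An ISRE match was thus found in windows of both directions. Other lost windows belonged to Gimap5, Adgrg5, E2f2, Gm35827 and Gm16118, the last with an ISRE match starting 25 bases after the start, and other gained windows to Sirpb1c, Vnn3, Rara, Gm39852, Gm19619, Gm44040, Gm34474 and Gm30963.

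Motif shares over more windows came from all peaks. The PU.1 letters occurred in 8.09% of the 235 windows with a lost site, in 1.39% of the 359 windows with a gained site, in 3.81% of the 6825 windows with a site strong in all 4 libraries, and in 3.22% of all 32619 windows. The ISRE or the ETS-IRF letters occurred in 6.81% of windows with a lost site and 7.52% of those with a gained site. They occurred in 4.91% of windows with a site strong in all 4 libraries and 5.95% of all windows. Over all peaks the share with PU.1 letters was thus highest for lost sites, and that with either IRF element was of like size in both directions. Of windows with a strong site, 3 of 9 lost and 1 of 11 gained held either IRF element, too few to compare. These are descriptions, with no test, and ISRE, ETS-IRF and PU.1 matches can overlap when shifted.

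Among the 12 strong lost sites with the best ranks, all had at least 23.1-fold enrichment in each WT library. The leading site, chr2:118804511-118804911, lay 9.3 kb from Knstrn, which encodes a mitotic spindle protein, and had 35.0-fold and 35.5-fold enrichment in WT. A site inside P3h2, a collagen prolyl hydroxylase gene (chr16:26041306-26041706), had values of 30.2 and 28.4. A site 14.3 kb from Lbh, a transcription cofactor gene (chr17:72903821-72904221), had 29.4 and 30.3. The 3 sites were missing from both IRF8KO libraries at P14, as the rule asks. The median WT value of the 620 lost sites was 19.5 and 19.9. The 3 lay above it, but leading sites were picked by rank in these same WT libraries.

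Rasgrf1 and Rasgrf2, which encode exchange factors that activate Ras, both had a leading lost site. The Rasgrf1 site (chr9:90033926-90034326, 7.1 kb from the gene) had 26.5-fold and 27.7-fold enrichment in WT, and the Rasgrf2 site (chr13:92030675-92031075, inside the gene) had 28.9 and 30.9. The other leading lost sites were assigned to Plppr4, Magi2, Mrap2, Sult1c1, Lrrc4c and Lsm14a, and 1 had no protein-coding gene within 100 kb. Plppr4 and Lrrc4c, a membrane protein and an adhesion protein, are known from synapses. The assignment is by position alone, and no expression was measured.

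Among gained sites the leading site, chr4:3981404-3981804, lay 14.3 kb from Sdr16c5, a retinol dehydrogenase gene, and had 25.9-fold and 27.4-fold enrichment in IRF8KO. A site 3.9 kb from Serpinb2 (chr1:107496832-107497232), which encodes plasminogen activator inhibitor 2, had 20.1 and 28.1. A site 54.1 kb from Nt5e (chr9:88273303-88273703), the gene of the ectonucleotidase CD73 that makes adenosine from AMP, had 23.3 and 22.7. These sites were missing from both WT libraries at P14. A site inside Acaca, the acetyl-CoA carboxylase gene of fatty acid synthesis (chr11:84198031-84198431), had 22.4 and 25.3, and one 1.6 kb from Sirpb1a (chr3:15427911-15428311) had 26.4 and 26.6. A site inside Pdpn (chr4:143288464-143288864), the gene of the membrane glycoprotein podoplanin, had 17.6 and 19. The remaining leading gained sites were assigned to Nol4, Dlgap1, Samsn1, Olfr985 and Micu3, and 1 had no gene within 100 kb.

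**Figure D1:**
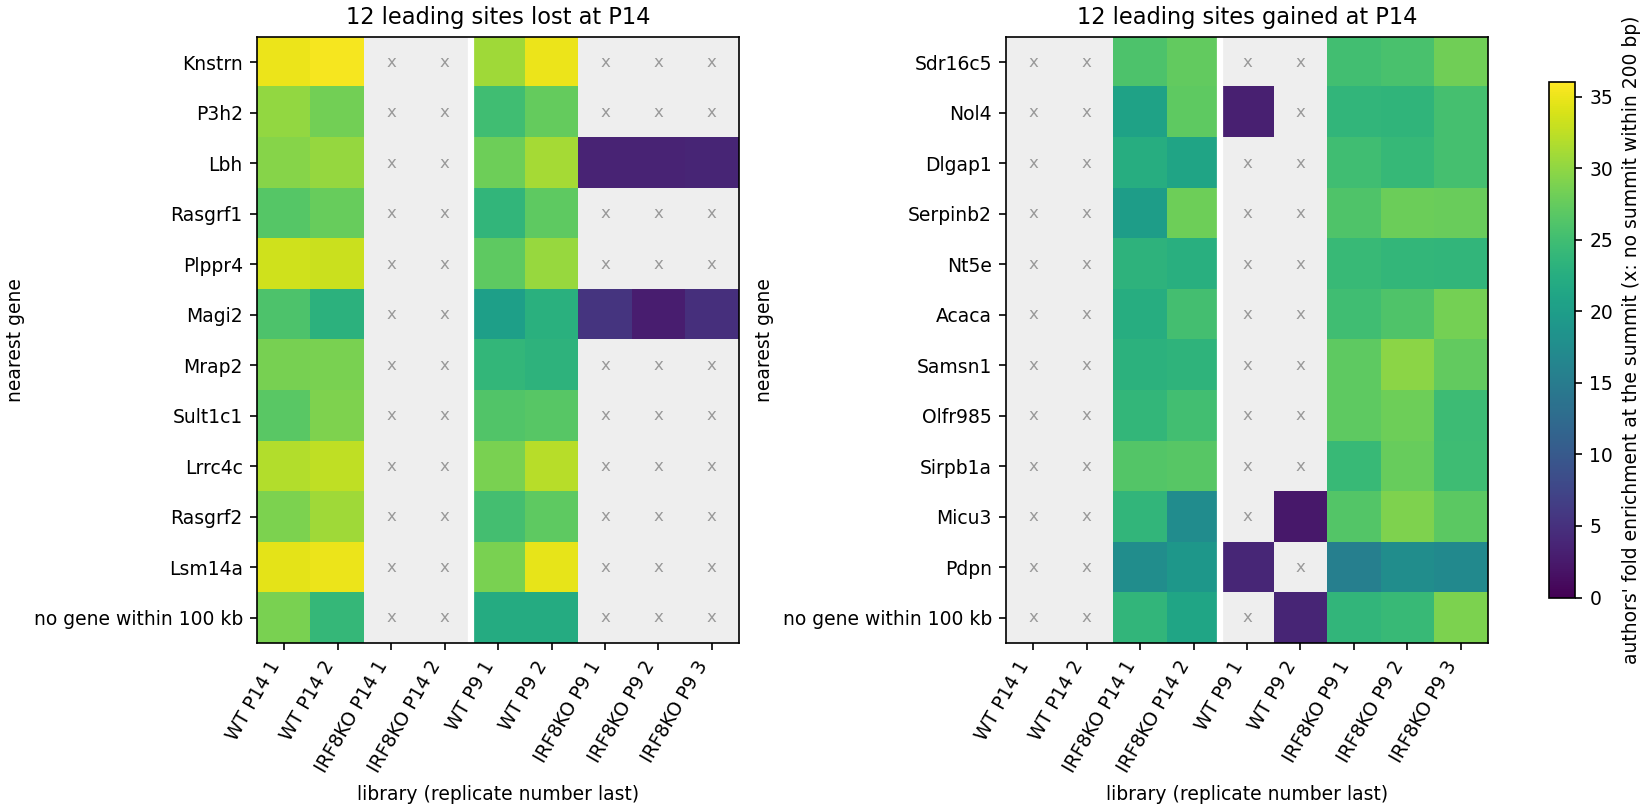
Each cell gives the fold enrichment the authors deposited (colour scale) at 1 of the 12 leading lost sites (left) or gained sites (right), named by the nearest gene, in the 4 libraries at P14 and the 5 at P9. A cross marks a library with no summit within 200 bp. The 4 libraries at P14 set the calls, and in the P9 libraries the same genotype carries the bright cells in every row.

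The P9 libraries were not used to choose the sites. All 620 strong lost sites were present in the first WT library at P9 and 618 in the second. In the 3 IRF8KO libraries at P9, 188, 183 and 178 of the 620 were present. The mean share was 99.8% ± 0.212 (SD, n = 2) in WT and 29.5% ± 0.8 (n = 3) in IRF8KO, a difference of -70.3 percentage points. The two-sided exact permutation test gave p = 0.1, the smallest that 10 arrangements allow. The groups did not overlap. Over the 6 shares compared, each p was 0.1, and so was each Benjamini-Hochberg adjusted p of the exact tests.

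Of the 466 strong gained sites, 465 were present in each IRF8KO library at P9, and 72 and 68 in the WT libraries. The mean share was 15.1% ± 0.636 (SD, n = 2) in WT and 99.8% ± 0.0 (n = 3) in IRF8KO, a difference of 84.8 percentage points (two-sided exact permutation p = 0.1, the smallest possible). Again the groups did not overlap. The same pattern in all 5 libraries, present in every library of one genotype and missing from every library of the other, held for 352 lost and 349 gained sites. The opposite pattern held for 0 of either kind. By contrast, at least 18509 of the 18513 sites that were strong in all 4 libraries at P14 were present in each P9 library.

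At P9 the IRF8KO lists were the stronger ones, and the lost sites that they did hold were weak peaks there. No lost site was among the 30000 top peaks of an IRF8KO library at P9, and the best rank was 41608. The median fold at lost sites present was 3.65, 3.38 and 3.93 in the IRF8KO libraries and 13.4 and 15.9 in the WT libraries at P9. Gained sites had median folds of 16.6, 16.0 and 17.7 in the IRF8KO libraries, and of 3.1 and 3.52 at the 72 and 68 sites present in WT. Of the gained sites, 3 and 2 were among the 30000 top peaks of the WT libraries at P9, with best ranks of 18232 and 10333. So 108 of the 620 lost sites were present in all 3 IRF8KO libraries at P9 at low rank, and 354 were missing from all 3.

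In WT microglia at 10 months, 584 and 591 of the 620 lost sites were present (94.2% and 95.3%), and 61 and 84 of the 466 gained sites (13.1% and 18%). Age, dye and library strength differ together between these libraries and those at P14, and they cannot be told apart.

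**Figure D2:**
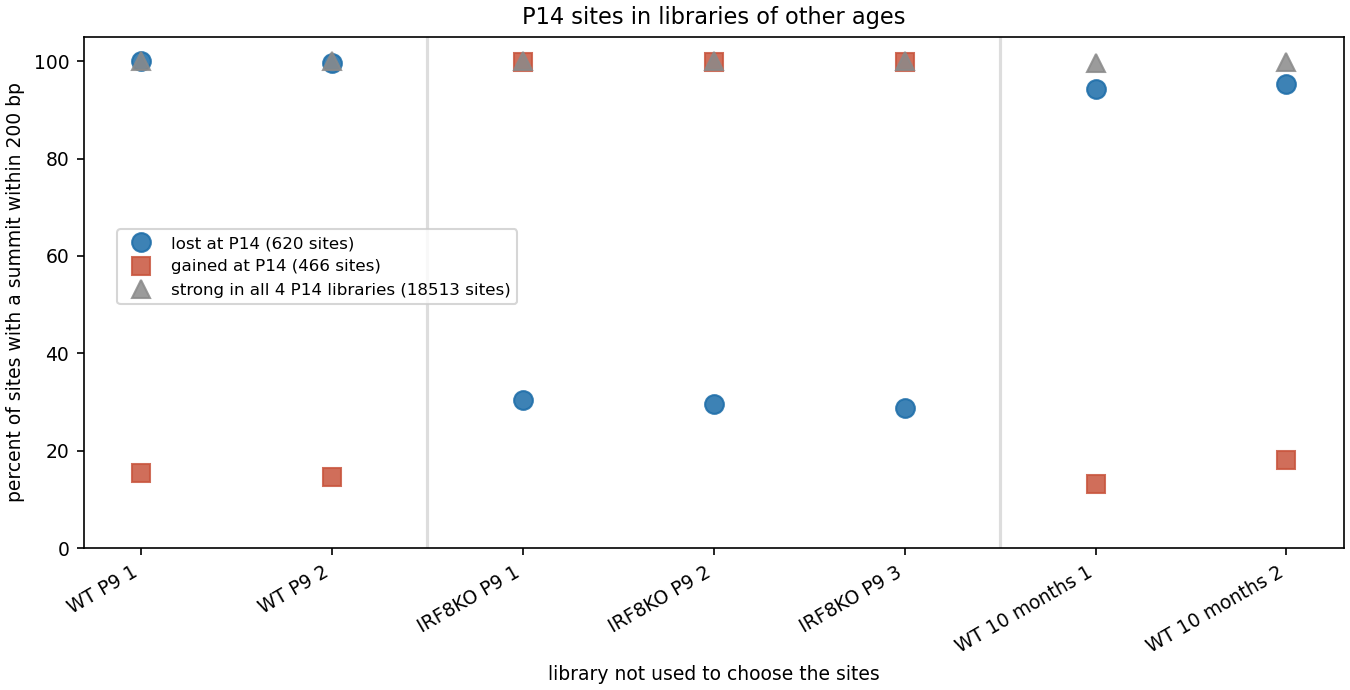
The vertical axis gives the percent of P14 sites with a summit within 200 bp in each library of another age, for the 620 strong lost sites (circles), the 466 strong gained sites (squares) and the 18513 sites strong in all 4 P14 libraries (triangles). Lost sites lie near the top in WT libraries and between 28.7% and 30.3% in IRF8KO at P9, and gained sites lie at 99.8% in IRF8KO and between 13.1% and 18% in WT.

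Lost and gained sites lay far from gene ends. Within 1 kb of the end of a protein-coding gene body, on either side, lay 2.9% of strong lost sites and 4.51% of strong gained sites, against 40.0% of the sites strong in all 4 libraries. Gene bodies held 54.0%, 47.2% and 35.3%. A further 25.3%, 28.3% and 18.3% lay within 50 kb of a gene and 17.7%, 20% and 6.39% beyond that. Sites strong in all 4 libraries are better ranked, and among those whose worse rank was between 10000 and 30000 the share near gene ends was 32.4%. In that same rank range the shares were 2.85% for lost and 4.88% for gained sites.

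**Figure D3:**
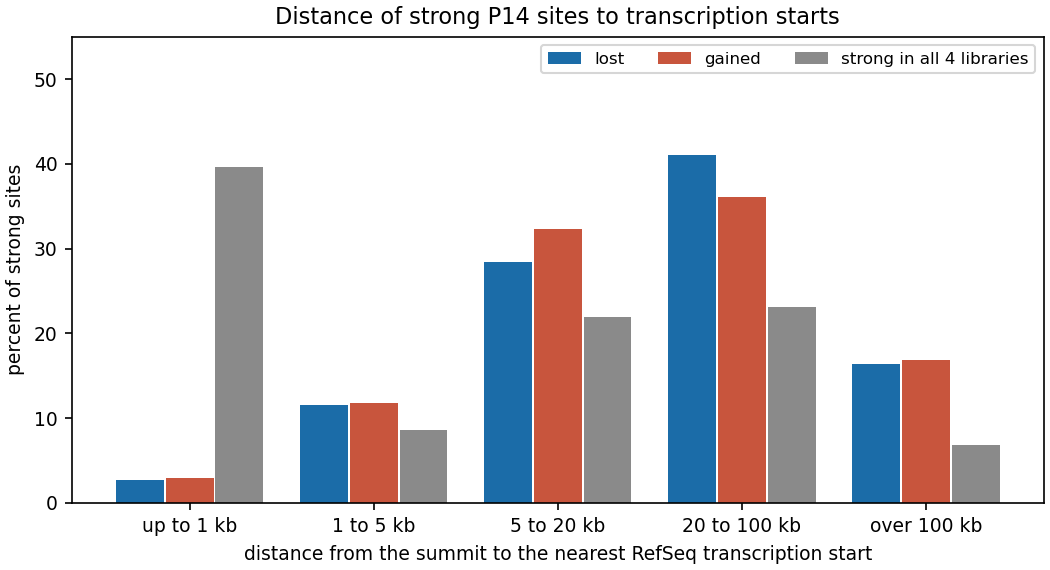
Bars give the percent of strong lost, strong gained and always strong sites (strong in all 4 P14 libraries) by distance from the summit to the nearest RefSeq transcription start, chromosome 18 left out. Within 1 kb of a start lie 2.65%, 2.95% and 39.6% of the 3 kinds of site, and the lost and gained bars peak at 20 to 100 kb with 41.0% and 36.1%.

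The 620 lost sites were spread over all chromosomes used, from 1.21% of strong sites on chromosome 19 to 2.67% on chromosome 12. The gained sites ran from 0.837% on chromosome 11 to 2.57% on chromosome 18. A protein-coding gene lay within 100 kb of 553 lost sites, at 487 genes, and of 414 gained sites, at 368 genes, and 14 genes had both. Most strong called sites stood apart from each other: 514 of the 620 lost and 397 of the 466 gained sites had no other strong called site of that direction within 50 kb. There were 10 clusters of at least 3 strong lost sites and 6 of at least 3 strong gained sites.

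The most strong lost sites per gene were at Magi1, which encodes a junction scaffold, with 5 strong lost sites over 95.0 kb and no site strong in all 4 libraries between them. The 5 Magi1 sites had 6.67-fold to 22.3-fold enrichment in the first WT library and 6.71-fold to 24.8-fold in the second. Of all 65 Magi1 sites present in both libraries of a genotype, 36 were lost and 0 gained. Rasgrf1, the transcription factor gene Ebf3, the lipoprotein receptor gene Lrp12, the calmodulin regulator gene Pcp4 and the liprin gene Ppfibp2 each had 3 strong lost sites, as had Tiam1, Igf1r, Ets1 and Ecrg4. At Ebf3, 11 of 14 sites were lost, and at Pcp4 13 of 15. Over all genes 14.7% of sites were lost, but Magi1, Ebf3 and Pcp4 were picked by their strong lost sites, which these counts include. Clusters were also found at the Gimap6, Gimap1 and Gimap5 genes, Tiam1, Igf1r, Ecrg4, between Kdm2b and Orai1, and next to Sall1.

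The most strong gained sites per gene were at Itpr1, the gene of an inositol trisphosphate receptor that releases calcium from the endoplasmic reticulum, with 5 strong and 16 gained sites of 47. The strong Itpr1 sites had 6.01-fold to 11.1-fold enrichment in the first IRF8KO library and 6.13-fold to 13.3-fold in the second. Itpr1 also had 4 lost sites, all in the part of the gene near its lower coordinate, so its sites did not move together. At Serpinb2, 6 of 7 sites were gained, 4 of them strong over 36.4 kb. All 7 Serpinb2 sites were present in each IRF8KO library at P14 and P9, and 1 of the 7 in each WT library at P14, P9 and 10 months. Tenm2, a teneurin adhesion gene, had 4 strong gained sites, and Scrg1, the nesprin gene Syne1 and the aminopeptidase gene Aopep had 3 each. At Tenm2 18 of 22 sites were gained. Over all genes 9.08% of sites were gained, but Itpr1, Serpinb2 and Tenm2 were picked by their strong gained sites, which these counts include. A further cluster of 3 gained sites lay by the neutrophil chemokine genes Cxcl15 and Cxcl1.

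Sall1, a zinc-finger repressor that is a defining regulator of microglia, had nearly all of its sites lost. Of 29 Sall1 sites, 29 were present in each WT library at P14, 0 in the first and 1 in the second IRF8KO library, and 27 were called lost. The 2 strong lost sites had 13.7-fold and 16.3-fold enrichment at chr8:89055813-89056213, 11.9 kb from the gene, and 22.0-fold and 20.6-fold at chr8:89134411-89134811, 90.4 kb from it. Of the 29, 20 and 25 were present in the WT libraries at P9, and 2, 1 and 0 in the IRF8KO libraries. The 2 Sall1 sites not called lost lay 0.46 and 1.36 kb inside the larger-coordinate end of the gene, and a summit lay within 400 bp of each in at least 1 IRF8KO library. Sall3, a relative of Sall1, had 5 of 17 sites lost and 1 strong gained site 39.6 kb away.

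**Figure D4:**
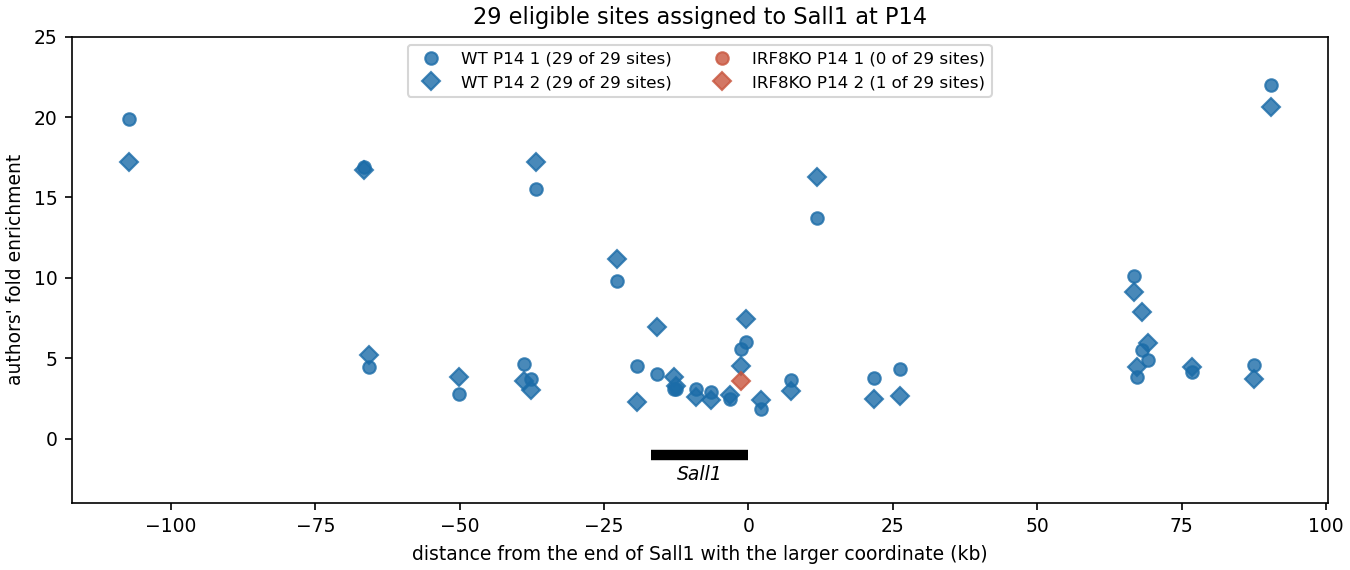
Points give the authors' fold enrichment at the 29 Sall1 sites (vertical axis) by distance from the larger-coordinate end of the gene in kb (horizontal axis), for WT (blue) and IRF8KO (red) libraries at P14, circles for replicate 1 and diamonds for replicate 2. WT points run from 1.84 to 22.0, and a single IRF8KO point at 3.58 is seen.

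All 12 strong Irf8 sites were present in all 4 libraries and none was called. Of the 12, 11 were strong in both WT libraries and 8 in both IRF8KO libraries. Over all peaks, 2 of 35 Irf8 sites were lost and 0 gained. The site closest to the Irf8 start (chr8:120736068-120736468) had 14.8-fold and 13-fold enrichment in WT and 11-fold and 12-fold in IRF8KO. Accessibility does not measure the deleted part of the gene, so it does not check the genotype labels.

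Gene lists were counted over all peaks, and calls in both directions were mostly weak peaks. Beyond rank 60000 in at least 1 library of their group lay 14894 of the 17343 lost and 9489 of the 11336 gained sites. Of these weak lost sites, 64.1% and 71.8% were present in WT at P9, and 39.6%, 38.2% and 40.0% in IRF8KO. Of the weak gained sites it was 18.9% and 23.8% in WT, and 48.5%, 47.1% and 48.3% in IRF8KO. The gained count moved more under a minimum −log10 q of 2 for a present peak. Then 6442 sites were gained in place of 11336, and 15295 lost in place of 17343. Over all protein-coding genes, 14.7% of 109242 sites were lost and 9.08% gained. Of the 404 sites at 28 of 30 microglia identity genes, 95 were lost (23.5%) and 14 gained (3.47%). Without Sall1 it was 68 of 375 (18.1%), so Sall1 alone made up 27 of the 95. With the minimum −log10 q it was 85 of 378 (22.5%), against 14.1% for all genes. Of 138 strong sites of the list, 5 were lost (3.62%), at Sall1, Rtn1 and Aif1, and 1 was gained (0.725%), at Sall3. These counts are too small to set against the 1.87% lost and 1.4% gained of strong sites over all genes.

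Aif1 encodes IBA1, a common marker of microglia, and its lost site (chr17:35173311-35173711) had 12-fold and 13.3-fold enrichment in WT. Rtn1, a reticulon of the endoplasmic reticulum, had 2 strong lost sites. One (chr12:72333990-72334390) had values of 13.3 and 13.5, and the other (chr12:72310808-72311208) 11.9 and 13.6. The Aif1 site and 1 Rtn1 site were no longer called when missing meant no summit within 1000 bp, and neither were the lost sites of Lbh, Rasgrf2, Bach1, Bach2, Irf2, Msr1 and Tlr7 and 1 gained site of Etv6. Of other genes of the list, counted over all peaks, P2ry12, the purinergic receptor of microglia, had 3 of 13 sites lost, Cx3cr1, the fractalkine receptor, 5 of 14, Csf1r, the receptor needed for microglial survival, 3 of 11, and Tmem119 1 of 7, counts too small to set against the 14.7% of all genes. No strong site of P2ry12, Cx3cr1, Csf1r or Tmem119 was called in either direction.

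Border-associated macrophages, which live in the meninges and perivascular spaces, express other genes than microglia. Of 146 sites at 16 of their marker genes, 11 were lost (7.53%) and 29 gained (19.9%). Of 46 strong sites of the list, 4 were gained (8.7%), at Cp, Clec4n, Cd163 and F13a1, and 0 were lost. Over all genes 1.4% of strong sites were gained and 1.87% lost, and the list's count is small and was not tested. The 4 genes encode ceruloplasmin, a C-type lectin, a haemoglobin scavenger receptor and a coagulation factor subunit. The F13a1 site (chr13:37104908-37105308, 54.9 kb away) had 19.4-fold enrichment in both IRF8KO libraries, and the Clec4n site (chr6:123252812-123253212) had 20.2 and 20.8. The Cp site had 21.0 and 16.1, and the Cd163 site (chr6:124320416-124320816) 11 and 13.7. All 4 were missing from both WT libraries at P14 and from both at P9. Clec10a, Lyve1, Pf4, Cbr2 and Stab1 of the same list had no gained site, and 2 of 5 Stab1 sites were lost. Without F13a1, the gene with the most gained sites, the share was 18.2%. With the minimum −log10 q, 23 of 134 sites were gained (17.2%), against 5.66% for all genes.

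**Figure D5:**
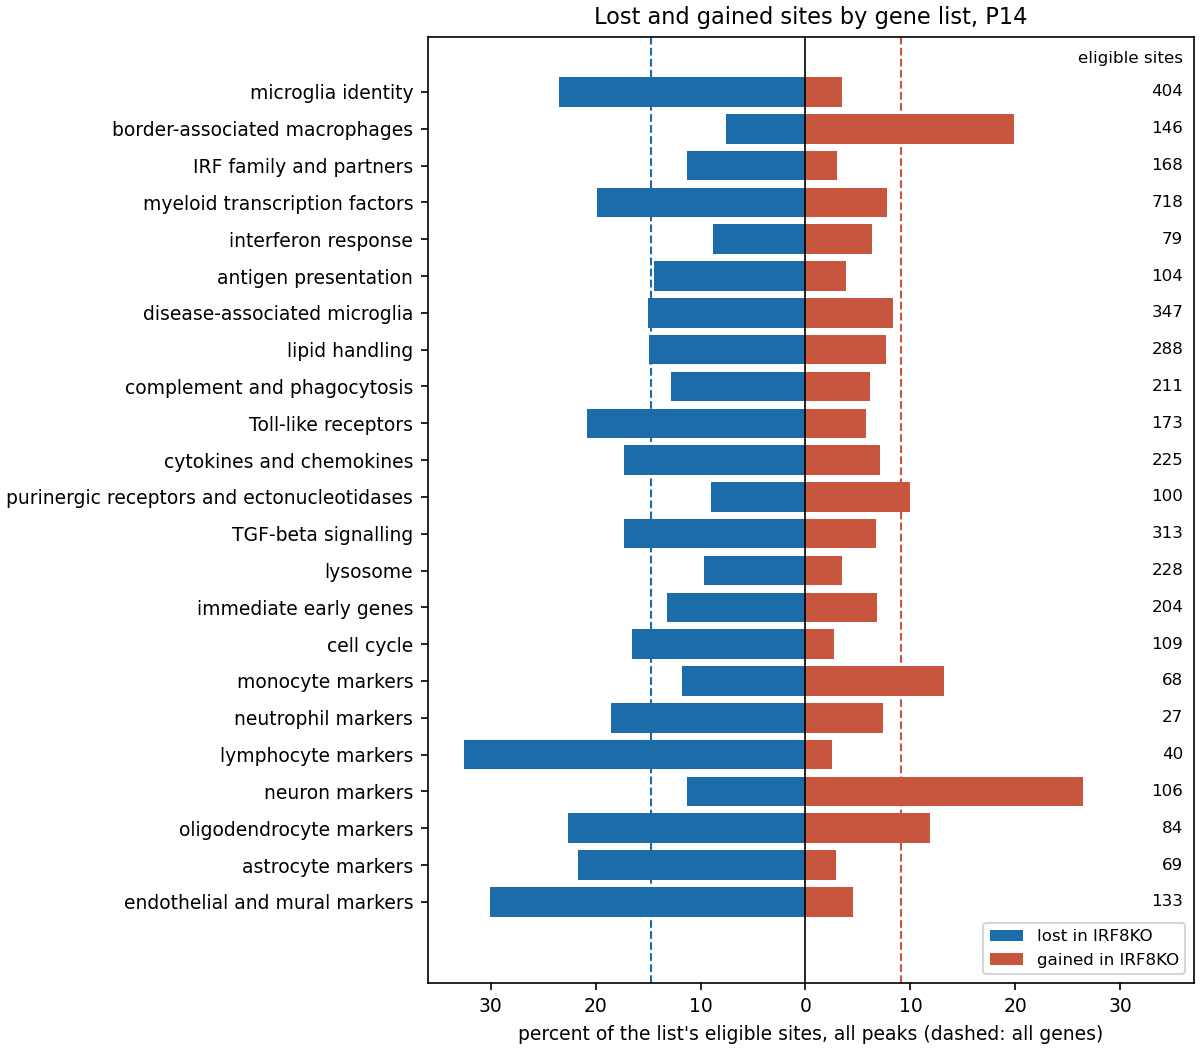
Bars give the percent of each list's sites (all peaks) lost (left, blue) or gained (right, red) at P14, with the number of sites at the right and the values for all genes, 14.7% and 9.08%, as dashed lines. Microglia identity genes stand to the left with 23.5% lost and border-associated macrophage genes to the right with 19.9% gained, while several small lists of other cell types lie further out.

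Lists of cell types that a sort of microglia should lack also had high shares. For lymphocyte markers 13 of 40 sites were lost (32.5%) and for endothelial and mural markers 40 of 133 (30.1%). For neuron markers 28 of 106 were gained (26.4%), at Rbfox3, Snap25 and Syt1 among others. For astrocyte markers 15 of 69 were lost (21.7%), 9 of them at Slc1a3. Shares were also taken without the gene that had the most such sites. The lost shares were then 26.5% for lymphocyte, 28.1% for endothelial and mural and 15.4% for astrocyte markers, and the gained share for neuron markers 25.6%. With a −log10 q of at least 2 asked of a present peak, 10 of 82 neuron marker sites were gained (12.2%), against 5.66% for all genes. Under the same minimum, 10 of 34 lymphocyte, 36 of 120 endothelial and mural and 15 of 67 astrocyte marker sites were lost. Each of these lost shares was at least 22.4%, against 14.1% for all genes. Strong sites were few: none of the 6 at lymphocyte, 19 at endothelial and mural and 13 at neuron markers was called, and 1 of 15 at astrocyte markers was lost, at Slc1a2. Over all genes 1.87% of strong sites were lost and 1.4% gained, so numbers this small show nothing about these lists. The share of these cell types in the sorted cells and its part in the counts above were not tested, and no read depth was used.

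Myeloid transcription factor genes had 143 of 718 sites lost (19.9%) and 56 gained (7.8%). Of 202 strong sites of the list, 4 were lost (1.98%) and 5 gained (2.48%). Over all genes it was 1.87% and 1.4%, so nothing is read from these counts about the list. The strong lost sites were at Bach1, Bach2, Myb and Etv6, and the strong gained sites at Bhlhe40, Mef2a, Runx2 and Etv6. The Myb site (chr10:21192439-21192839, 31.7 kb from the gene) had 22.3-fold and 23.5-fold enrichment in WT. Etv6 had 1 strong lost and 2 strong gained sites, all inside the gene, and Irf2 1 of each. Runx2, the factor known from bone and from blood cells, had 13 of 44 sites gained and 1 lost.

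For sensing and phagocytosis genes, Toll-like receptors had 36 of 173 sites lost (20.8%) and 10 gained (5.78%). Without Ly86, which had 14 of the 36, it was 22 of 120 lost (18.3%). Of 59 strong sites, 2 were lost and 1 gained, counts too small to set against the 1.87% and 1.4% of all genes. The strong lost sites were at Tlr7, a receptor for single-stranded RNA, and Ly86. The strong gained site was at Tlr2, a receptor for bacterial lipopeptides. The scavenger receptor genes went in different directions. The 2 Marco sites (chr1:120510309-120510709 and chr1:120517615-120518015) had 28.0-fold and 27.7-fold, and 32.4-fold and 32.0-fold, enrichment in WT and were lost, and so was 1 site of Msr1. The site in Cd36, the fatty acid translocase (chr5:17879870-17880270), had 15.2 and 14.9 in IRF8KO and was gained. Pparg, the nuclear receptor of lipid storage and of alveolar macrophages, had a strong lost site 14.7 kb away with 19.9 and 21.6 in WT. Plin2, which coats lipid droplets, had a strong gained site.

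Nt5e, Cxcl1, Cxcl14, Gpr65, Itga4, Tgfbr2, Tnfaip3, Atp6v0d2 and Ctsc had strong gained sites, and Il12a and the glutamate transporter gene Slc1a2 had strong lost sites. Cxcl1 had 4 of 10 sites gained and 0 lost. Interferon response genes had 7 of 79 sites lost (8.86%) and 5 gained (6.33%), and antigen presentation genes 15 of 104 lost (14.4%) and 4 gained (3.85%). Immediate early and cell cycle genes had 13.2% and 16.5% of sites lost. None of the 33, 35, 71 and 43 strong sites of these 4 lists was called. With 1.87% of strong sites lost and 1.4% gained over all genes, few calls could be found at such numbers, and nothing is read from it. The lists not given here by name ran from 9.0% (purinergic receptors and ectonucleotidases) to 22.6% (oligodendrocyte markers) lost and from 2.9% (astrocyte markers) to 13.2% (monocyte markers) gained.

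Apoe, the apolipoprotein gene, had 1 strong site, at its start, which differed in rank between the genotypes without being called. That site (chr7:19698909-19699309) had 3.52-fold and 2.64-fold enrichment in WT at ranks 86791 and 114022, and 9.08-fold and 8.51-fold in IRF8KO at ranks 9139 and 10413. Such sites were not rare. Of the 24073 sites strong in both IRF8KO libraries, 953 were present in both WT libraries but beyond rank 60000 in each, the Apoe site among them. In the reverse direction it was 467 of the 25327 sites strong in both WT libraries. The rule finds sites that come or go and passes over sites like these. Of the 4 Apoe sites over all peaks, 1 was called lost, a weak site at chr7:19698096-19698496 with 2.82-fold and 2.93-fold enrichment in WT.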

How the data were processed

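Peak lists in narrowPeak form were used for 13 libraries. The submitters' processing notes name mm10 and the tools bcl2fastq, Bowtie2, deepTools and MACS2 2.2.7.1, in no order and without settings. Each list holds 1 library, so the authors called peaks per sample. Fold enrichment is a ratio deposited by the authors, as are the −log10 p and −log10 q values. Summit offsets within each peak were also deposited by the authors. Read depth was not used here, so no counting interval is given.

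Summits of the 4 libraries were taken in order of −log10 p and dropped within 400 bp of an accepted site. Genes were the nearest RefSeq protein-coding gene bodies of GRCm38.p6 within 100 kb. Promoter windows came from the RefSeq promoter table, which gave starts for 26794 genes. Genes outside it, Itpr1 among them, and chromosome 18 were left out of the start distances. Shares at P9 were compared by a two-sided exact permutation test over libraries, and the other values are descriptions. Named genes were those of the 12 leading sites in each direction, the 6 genes with the most strong called sites in each direction, listed genes with a strong called site, genes with a called promoter window, and Irf8, Sall1, P2ry12, Tmem119, Cx3cr1, Csf1r and Apoe. The members and lists were chosen with earlier results of these data known. The location comparison within a range of ranks, the gene lists with a minimum −log10 q and the replicate block at P9 were added after the values were seen. The alternatives were other distances, numbers of top peaks, a minimum −log10 q of 2, lists shortened to equal length, peak intervals, a gene distance of 20 kb, and each P14 library left out. The rule was also run on copies of the WT lists with shifted summits and some strong sites removed. Such copies lack the difference in list strength between the genotypes at P14, so they cannot show how the rule behaves under it. The tools were scipy 1.17.1, pandas 2.3.3, numpy 2.4.6 and matplotlib 3.10.9 under Python 3.11.15.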

Additional observations from a re-analysis of the deposited data

How the results depend on the processing

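With a replicate block, P9 libraries of equal number being taken as pairs and the third IRF8KO library left out, IRF8KO minus WT was -70.0 percentage points for lost and 84.8 for gained sites (exact sign-flip p = 0.5, the smallest that 2 pairs allow). No label ties equal numbers to a shared mouse or batch, and the calls at P14 come from a rule without a test. The number of top peaks set the number of strong sites: 93 lost and 56 gained with 10000, 294 and 225 with 20000, and 1684 and 1269 with 50000. With a −log10 q of at least 2 asked of a present peak, 15295 sites were lost and 6442 gained over all peaks. Leaving out 1 library at a time gave 24567 to 30993 lost and 13247 to 69127 gained sites over all peaks, the latter highest without the first IRF8KO library. For strong sites these ranges were 736 to 848 lost and 564 to 660 gained. Over all peaks, 7.85% of lost and 6.77% of gained sites lay within 1 kb of a gene end. For sites present in all 4 libraries it was 22.9%. The alternatives were applied to 66 strong sites, the 12 leading sites of each direction and those at listed genes. Of these, 56 were kept under all alternatives other than the number of top peaks. The other 10 were no longer called when missing meant no summit within 1000 bp, among them those of Aif1, Rtn1, Lbh, Bach1, Bach2, Msr1, Tlr7 and Rasgrf2. A library left out, shortened lists, the minimum −log10 q or missing judged within 200 bp could not undo a call. Only presence within 100 bp, missing within 1000 bp and peak intervals could, so the 56 speak to these alone. Strong sites at other named genes, Magi1 and Itpr1 among them, were not checked in this way. The calls show presence in a list, not a measured difference in reads, and the weaker IRF8KO lists at P14 limit what a missing weak peak shows.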

Other observations

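Sites lost in IRF8KO at P14 were looked up in WT and in MetoxyX04 negative 5xFAD microglia at 10 months, a line with human transgenes that forms amyloid plaques. Of the 620, 575 were present in both WT libraries at 10 months and 605 in both MetoxyX04 negative 5xFAD libraries. The 19 lost sites that were missing from both WT libraries at 10 months included 11 on chromosomes 5, 6 and 8 (57.9%, against 19.4% of all 620), and 11 of the 19 were present in both MetoxyX04 negative libraries. This grouping by chromosome was chosen after the values were seen.

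Of the 466 gained sites, 44 were present in both WT libraries at 10 months and 9 were strong in both. The 9 were near Rtkn2, Hspb7, Etv6, Dnajc15, Antxr2, Fgl1, Skint3 and Enox1, the last with 2 sites. The Enox1 site at chr14:77448012-77448412 had 25.1-fold and 24.1-fold enrichment in IRF8KO at P14 and was missing from both WT libraries at that age. In WT it had 13.7-fold and 16.0-fold enrichment at P9 and 14.8-fold and 22.1-fold at 10 months, so in WT it was listed before and after P14. An olfactory receptor gene was nearest to 0 of the 620 lost sites and to 2 of the 466 gained sites, both at Olfr985.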
